A study of Mus musculus with 4 samples.

Results

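The 32 genes described here encode enzymes and transporters of glycolysis and genes that cells induce when oxygen is low. They were chosen by name, with earlier results of these data known, and all 32 were found among the 22631 gene columns. They fall into 17 glycolysis genes (glucose uptake to lactate export) and 15 hypoxia genes. The cells were CD45+ (blood-derived) cells sorted from flank tumours of MC38, a mouse colon carcinoma line, grown for 7 days in IL-12p40-IRES-EYFP mice, which carry a fluorescent reporter of interleukin-12. A single tumour was left untreated, and the other 2 came from mice injected intraperitoneally with an antibody that activates CD40 (anti-CD40, 5 mg/kg), which macrophages, dendritic cells and B cells carry as a receptor, and were taken 2 days later. All 3 tumours were grown in the reporter strain, so no tumour without the reporter was compared. RNA molecules were counted by unique molecular identifiers (UMIs) with inDrops, a droplet method.

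In glycolysis, glucose enters the cell through transporters such as GLUT1, is phosphorylated by hexokinase and is broken down to pyruvate, which can be turned into lactate and exported. When oxygen falls, the prolyl hydroxylases that mark HIF-1 alpha for destruction lose activity, and HIF-1 then binds DNA at elements with an ACGTG or GCGTG core and raises many of these same genes. Neutrophils and macrophages rely heavily on glycolysis and often lie in poorly supplied tumour regions, so HIF targets are commonly read in them.

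The 4440 cells held 3961141 UMIs in 12 libraries, with 0 cell barcodes shared between libraries. Median depths per cell were 433 UMIs for the untreated tumour, and 979 and 865 UMIs for anti-CD40 tumours 1 and 2. Sequencing pools 1 and 2 held the untreated libraries and those of anti-CD40 tumour 1, and pools 3 and 4 those of anti-CD40 tumour 2, so this tumour and its pools cannot be told apart. Levels are counts of UMIs scaled to the total of the cell group (counts per 1e6 UMIs, CPM) or percent of its UMIs, and values in threes are in the order untreated tumour, anti-CD40 tumour 1, anti-CD40 tumour 2. Intervals in parentheses after a level or ratio are 95% Poisson or conditional binomial intervals, which cover counting error only. Cell types and neutrophil subsets (N1a to N5) are the authors' names, made from the same cells' expression, so differences between them are described and not tested. Because the method counts each RNA molecule once, at its poly(A) end, levels were not divided by gene length. Cells annotated as neutrophils carried the neutrophil markers (S100a8, Csf3r and others) at 4.19%, 10.7% and 6.93% of UMIs, against 0.0316%, 0.222% and 0.103% in the other myeloid cells. Macrophage and monocyte markers stood at 1.78%, 0.589% and 1.38% in the latter and at 0.0341%, 0.0965% and 0.0632% in neutrophils. Tumour epithelial markers (Epcam and 4 others) were at 0 in neutrophils and at 0.000504% to 0.0119% in the other myeloid cells.

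The stretches before the transcription start of 5 of the genes are shown, because the HIF core motif can be read in them and because motif and level did not always go together among neutrophils. Bnip3, P4ha1 and Hk2 had matches and were much higher in the subset N5, Hif1a had matches and did not differ there beyond counting error, and Mif had none and was much higher (values follow). They are the 250 bases before a transcription start, from RefSeq in the mouse build GRCm38.p6, written 5′ to 3′ on the gene's strand. Capitals mark ACGTG or GCGTG on either strand (CACGT or CACGC when read on the printed strand; neighbouring matches can overlap). Bnip3 (chr7:138909507-138909756, minus strand) encodes a mitophagy receptor, P4ha1 (chr10:59323046-59323295, plus strand) a collagen prolyl hydroxylase, Hk2 (chr6:82774455-82774704, minus strand) hexokinase 2, Hif1a (chr12:73907617-73907866, plus strand) the oxygen-regulated HIF subunit, and Mif (chr10:75860278-75860527, minus strand) a secreted cytokine.
Bnip3: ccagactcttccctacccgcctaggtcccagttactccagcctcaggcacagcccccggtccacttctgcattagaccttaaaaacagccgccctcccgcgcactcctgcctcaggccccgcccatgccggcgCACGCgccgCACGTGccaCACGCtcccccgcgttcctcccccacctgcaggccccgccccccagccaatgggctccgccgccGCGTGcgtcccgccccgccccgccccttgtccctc
P4ha1: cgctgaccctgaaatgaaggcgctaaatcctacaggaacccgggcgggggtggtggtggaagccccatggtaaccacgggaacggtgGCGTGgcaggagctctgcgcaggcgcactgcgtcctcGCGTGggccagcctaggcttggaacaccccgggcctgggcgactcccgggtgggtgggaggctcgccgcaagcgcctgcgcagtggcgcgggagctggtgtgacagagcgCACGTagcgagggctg
Hk2: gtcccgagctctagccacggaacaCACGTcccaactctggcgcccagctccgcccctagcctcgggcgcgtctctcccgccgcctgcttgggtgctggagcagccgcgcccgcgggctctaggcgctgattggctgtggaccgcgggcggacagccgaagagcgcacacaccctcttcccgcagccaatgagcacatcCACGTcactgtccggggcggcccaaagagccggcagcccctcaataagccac
Hif1a: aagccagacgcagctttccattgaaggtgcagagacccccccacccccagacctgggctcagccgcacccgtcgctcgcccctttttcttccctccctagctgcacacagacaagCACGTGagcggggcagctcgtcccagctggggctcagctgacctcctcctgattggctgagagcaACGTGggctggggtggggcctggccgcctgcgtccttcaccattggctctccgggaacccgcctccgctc
Mif: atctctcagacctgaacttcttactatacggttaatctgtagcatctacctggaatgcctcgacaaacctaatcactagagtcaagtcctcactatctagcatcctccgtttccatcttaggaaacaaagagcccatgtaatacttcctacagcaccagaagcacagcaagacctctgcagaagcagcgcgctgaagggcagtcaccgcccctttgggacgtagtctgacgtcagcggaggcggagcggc

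The Hif1a start lies inside the annotated gene, and 13 bases of the Bnip3 window lie in an annotated exon. The RefSeq starts of Hif1a and Mif were not found in a GENCODE transcript, whereas those of Bnip3, P4ha1 and Hk2 were. Bases after the start were not searched for matches. Bnip3 held 5 matches in this window, P4ha1 3, Hif1a 3, Hk2 2 and Mif 0. Of the 30 listed genes in the RefSeq promoter table, 26 (86.7%) held a match in at least 1 entry. That share was 41.5% over all 27025 genes in the table and 64.1% over the 5745 of them that were tested in myeloid cells. Genes with several entries have more room for a match. Per entry the share was 75.6% of the 41 entries of listed genes, against 38.6% of all 32851 entries. Vegfa and Pkm held a match only in an entry whose start was not found in a GENCODE transcript. Their entries found there held 0. The genes without a match were Gpi1, Gys1, Mif and Tpi1. A match is a description of letters and does not show that HIF bound there. Bnip3l and Ndrg1 were not matched.

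The level of the hypoxia genes differed most along the neutrophil subsets. Hypoxia genes took 0.181% (0.16 to 0.204) of UMIs in N1a, 0.275% (0.251 to 0.301) in N1b, 0.503% (0.473 to 0.534) in N2, 1.8% (1.73 to 1.89) in N3 and 3.3% (3.17 to 3.44) in N5 of anti-CD40 tumour 1. In anti-CD40 tumour 2 the same subsets were at 0.22% (0.159 to 0.298), 0.604% (0.491 to 0.734), 0.752% (0.661 to 0.851), 2.52% (2.39 to 2.66) and 4.04% (3.85 to 4.22). Untreated neutrophils, with 14 cells in N2, 15 in N3 and 14 in N5, were at 0.432% (0.295 to 0.61), 1.48% (1.21 to 1.79) and 2.85% (2.45 to 3.31). N1a held 0 untreated cells and N1b 4, and N4 held 4 cells in all, so no levels are given for these. The order N2, N3, N5 was the same in all 3 tumours, and no intervals of these neighbours overlapped within a tumour, whereas those of N1b and N2 overlapped in anti-CD40 tumour 2. The N5 cells of anti-CD40 tumour 1 had 25.1 hypoxia UMIs per cell out of a mean of 759 UMIs, against 2.13 out of 1179 in N1a, so the difference was in absolute counts too. Of N1a cells of anti-CD40 tumour 1, 30.5% had no hypoxia UMI, and 0% of N5 cells had none.

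Glycolysis genes differed less along the subsets. They took 0.607%, 0.616%, 0.608%, 1.31% and 1.77% of UMIs in N1a, N1b, N2, N3 and N5 of anti-CD40 tumour 1. The values were 0.54%, 0.767%, 0.597%, 1.09% and 1.64% in anti-CD40 tumour 2 and 0.648%, 1.46% and 1.43% in untreated N2, N3 and N5. N3 and N5 were above N1a, N1b and N2 in the treated tumours and above N2 in the untreated tumour. In untreated neutrophils the N3 and N5 intervals overlapped.

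**Figure D1:**
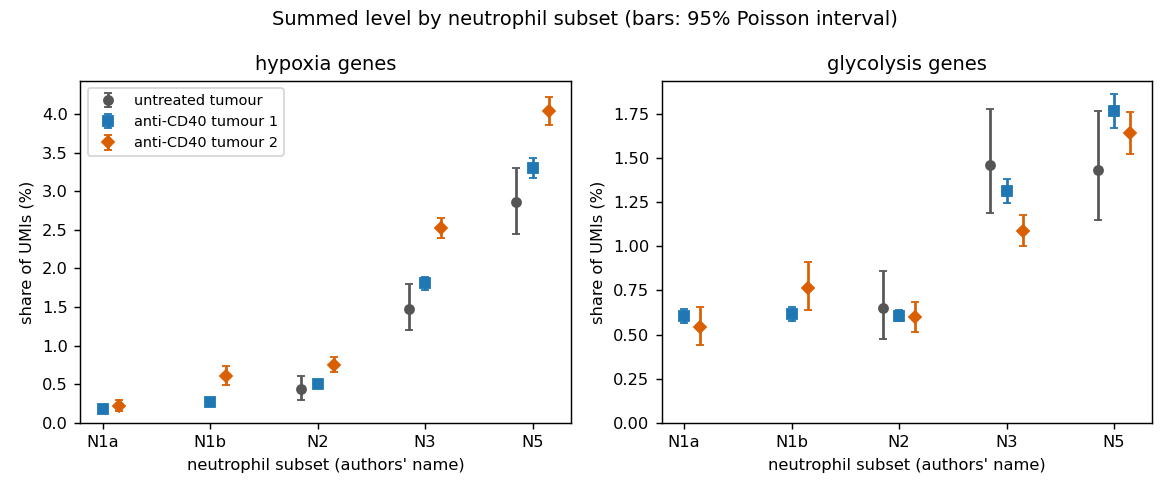
Share of UMIs in 15 hypoxia genes (left) and 17 glycolysis genes (right) by neutrophil subset, with 95% Poisson intervals; subsets with fewer than 10 cells in a tumour are left out. The hypoxia share in N5 is 3.3% and 4.04% in the treated tumours and 0.181% and 0.22% in N1a.

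Of the 32 genes, 27 had at least 50 UMIs over the neutrophils of the treated tumours, the minimum set here for a fold. In both treated tumours 20 of these 27 were at least 2-fold higher in N5 than in N1a and N1b together, a rule met by 15.9% of 2058 genes. A single listed gene, Slc16a3, was at least 2-fold lower in both, a rule met by 24.7% of the genes. The other 6 of the 27 (Gpi1, Aldoa, Gapdh, Eno1, Pkm and Hif1a) met neither. Adm, Ankrd37, Gys1, Ndrg1 and Pdk1 had fewer UMIs. The subsets were named from these cells' expression, so these counts are a description.

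Glucose uptake and the first steps of glycolysis were split. Slc2a1 (chromosome 4, 119108711 to 119137983), which encodes the glucose transporter GLUT1, was at 179, 282, 379.7, 964 and 1386 CPM in N1a, N1b, N2, N3 and N5 of anti-CD40 tumour 1 and at 315, 60.4, 455, 707 and 1155 CPM in anti-CD40 tumour 2. Its ratio of N5 over N1 was 5.93-fold (4.35 to 8.1) and 5.88-fold (2.66 to 15.3) in the treated tumours. Hk2 (chromosome 6, 82725025 to 82774454) was at 53, 88.2, 75.9, 393 and 1591 CPM and at 52.5, 60.4, 182, 707 and 1874 CPM. Most of its difference lay in N3 and N5, and the ratio of N5 over N1 was 22.2-fold (14.1 to 36.4) and 33.4-fold (8.96 to 280.0). Hk1, the housekeeping hexokinase, differed less, 2.83-fold (1.08 to 7.02) and 2.72-fold (0.517 to 26.8), the second interval including 1. Gpi1 (chromosome 7, 34201330 to 34230336), for the isomerase that follows hexokinase, was at 649.6, 670.3, 413, 262 and 549 CPM and at 682, 483, 333, 353 and 458 CPM, with ratios of 0.831-fold (0.577 to 1.17) and 0.776-fold (0.403 to 1.49). Hexokinase 2 and the isomerase that uses its product thus followed different patterns over the same cells.

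The phosphofructokinase step sets the pace of glycolysis. Pfkfb3 (chromosome 2, 11471433 to 11554077), whose product makes the activator fructose 2,6-bisphosphate, stood at 92.8, 118, 147, 562 and 412 CPM over the subsets of anti-CD40 tumour 1 and at 52.5, 181, 182, 424 and 763 CPM in anti-CD40 tumour 2. It was highest in N3 in the first and in N5 in the second. Pfkl and Pfkp, subunits of the enzyme itself, had N5 over N1 ratios of 11.6-fold (6.14 to 23.3) and 10.4-fold (4.97 to 23.3) in anti-CD40 tumour 1. In anti-CD40 tumour 2 they were 2.23-fold (0.964 to 5.77) and 7.76-fold (1.89 to 68.5), and the Pfkl interval there included 1. These rested on 23 UMIs in N5 and 8 in N1 for Pfkl, and on 20 and 2 for Pfkp. Exons of Pfkp overlap Pitrm1 on the other strand. Exons of Slc2a1, Hk1, Gpi1, Aldoa, Tpi1, Gapdh, Hif1a, Bnip3, Higd1a, Ndrg1, Ankrd37 and Gys1 likewise overlap a gene on the other strand, and those of Pkm and Hif1a overlap one on the same strand. The use of strand in counting is not given in the sources used here, so the counts of these 14 genes are uncertain.

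Between aldolase and pyruvate kinase, Tpi1 (triosephosphate isomerase) and Pgam1 (phosphoglycerate mutase) differed most. Tpi1 (chromosome 6, 124810586 to 124814296) stood at 99.4, 129, 218, 739.6 and 1179.8 CPM and 105, 302, 121, 601 and 1024 CPM over the subsets, and its N5 over N1 ratio was 10.2-fold (6.88 to 15.5) and 5.21-fold (2.34 to 13.7). Pgam1 had ratios of 7.39-fold (5.54 to 9.92) and 3.24-fold (1.89 to 5.87). Pgk1 (phosphoglycerate kinase) was 2.18-fold (1.6 to 2.96) and 2.22-fold (1.18 to 4.41), a smaller ratio. Eno1 (enolase) was 3.11-fold (2.23 to 4.32) and 1.86-fold (0.995 to 3.66), and Pkm (pyruvate kinase) 2.07-fold (1.74 to 2.46) and 1.81-fold (1.25 to 2.67). Aldoa (aldolase) was 2.18-fold (1.58 to 2.98) in anti-CD40 tumour 1 and 0.949-fold (0.486 to 1.88) in anti-CD40 tumour 2, where its interval included 1. Gapdh (chromosome 6, 125161715 to 125166467), often used as a reference gene, had ratios of 1.34-fold (0.834 to 2.07) and 1.29-fold (0.656 to 2.64), both with intervals that include 1. It ranked 11 among the 32 genes by UMIs, with 3.43% of them, and 90 annotated genes are nearly identical to its transcript end, so the authors' counting may have split its reads and its level is uncertain. Nearly identical genes also exist for Ldha (6), Mif (5), Pgk1 (4), Eno1 (4), Gpi1 (3), Bnip3 (2) and Pfkp (1), whose levels are uncertain too. Of these near-identical genes, 3 for Gapdh, 2 for Gpi1 and 1 each for Eno1 and Pfkp were among the gene columns. Ldha, Mif, Pgk1 and Bnip3 had 0 there, so no such column could hold their reads. How reads that match several genes were counted is not given.

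RNA of Ldha and Slc16a3, for making and for exporting lactate, differed in opposite directions between N5 and N1. Lactate itself was not measured. Ldha (chromosome 7, 46841475 to 46855627), for the lactate dehydrogenase chain that makes lactate, stood at 577, 476, 408, 1994 and 3635 CPM over N1a, N1b, N2, N3 and N5 of anti-CD40 tumour 1 and at 525, 302, 576, 1626 and 3203 CPM in anti-CD40 tumour 2. Its N5 over N1 ratio was 6.94-fold (5.7 to 8.48) and 7.61-fold (4.46 to 13.9). Slc16a3 (chromosome 11, 120948480 to 120960868), which encodes the lactate exporter MCT4 and is itself known as a hypoxia target, stood at 1452, 1311, 1077, 1198 and 398 CPM and at 1207, 1026, 970.0, 672 and 414 CPM. Its ratio was 0.289-fold (0.191 to 0.421) and 0.369-fold (0.202 to 0.652). N5 was lowest in Slc16a3 in both treated tumours and in the untreated tumour, where N2, N3 and N5 were at 540.0, 1884 and 322 CPM on 4, 13 and 2 UMIs. Slc16a3 had 2 core matches in its promoter window.

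Of the oxygen sensing genes, Hif1a did not differ between N5 and N1 beyond counting error and Egln3 did. Hif1a (chromosome 12, 73901375 to 73947530) stood at 159, 182, 199, 225 and 151 CPM and 262, 241, 243, 70.7 and 239.7 CPM, with N5 over N1 ratios of 0.881-fold (0.416 to 1.7) and 0.949-fold (0.357 to 2.59), both with intervals that include 1. HIF-1 alpha is controlled mainly at the protein, which these data do not measure. Egln3 (chromosome 12, 54178981 to 54203860), for an oxygen-dependent HIF prolyl hydroxylase that HIF itself induces, was at 6.63, 47, 161, 861 and 699.6 CPM and 0, 0, 90.9, 353 and 632 CPM. Its ratio was 24.9-fold (12.2 to 57.6) in anti-CD40 tumour 1 and at least 7.5-fold in anti-CD40 tumour 2, where N1 had 0 UMIs (a floor of 3 counts over the group) and the lower limit of the counting interval was 5.72-fold.

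Mitochondrial and secreted products were among the genes that differed most. Bnip3 (chromosome 7, 138890836 to 138909519) stood at 46.4, 100, 142, 683 and 1536 CPM and 0, 241, 333, 442 and 1459.8 CPM, and its N5 over N1 ratio was 20.5-fold (13.1 to 33.4) and 13-fold (4.85 to 49.1). Its relative Bnip3l, also a mitophagy receptor, had smaller ratios of 5.85-fold (4.18 to 8.22) and 4.66-fold (1.94 to 13.5). Higd1a, a small mitochondrial protein, was 42.6-fold (13.2 to 218) and 4.85-fold (1.68 to 19.2). Vegfa (chromosome 17, 46016993 to 46032369), the growth factor for blood vessels, was at 53, 58.8, 171, 618 and 1509 CPM and 52.5, 0, 121, 512 and 1438 CPM and had ratios of 26.9-fold (16.3 to 47.1) and 51.2-fold (8.88 to 2054). Mif was 30.8-fold (17.2 to 60.1) and 37.3-fold (6.38 to 1502), close to Vegfa. In anti-CD40 tumour 2 this rested on 48 UMIs in N5 and 1 in N1 for Mif, and on 66 and 1 for Vegfa. The Mif window held no core match. The Vegfa window whose start was found in a GENCODE transcript also held 0, and another, not found there, held 2. Adm, for the vasodilator adrenomedullin, was seen in 3, 1 and 1 UMIs over all neutrophils, all of them in N5.

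The other hypoxia targets held the first and the third of the listed genes by UMIs, with Pkm, at 10.7%, between them. Ier3 (chromosome 17, 35821684 to 35822923), an immediate early gene that hypoxia and inflammatory signals both raise, and Hilpda (chromosome 6, 29272488 to 29275446), an inhibitor of lipid droplet breakdown, took 13.0% and 9.4% of all UMIs of the 32 genes. Ier3 was at 829, 1364, 2525, 8182 and 9987 CPM and 1207, 3199.7, 4547, 14349 and 15295 CPM over the subsets. Hilpda was at 312, 594, 1163, 5037 and 13101 CPM and 419.7, 1328, 1122, 7033 and 16319 CPM, with ratios of 28.4-fold (23.9 to 34) and 19.4-fold (13.5 to 28.9). The untreated N2, N3 and N5 cells had 675, 2028 and 8705 CPM of Hilpda, the same order. Ero1l (the endoplasmic reticulum oxidase ERO1 alpha) had ratios of 29.3-fold (18.2 to 49.5) and 22.3-fold (7.36 to 110.0), and P4ha1 of 29.6-fold (15.6 to 61.9) and 8.54-fold (2.1 to 74.9). Without Ier3 and Hilpda the remaining 13 hypoxia genes still went from 0.0669% in N1a to 0.992% in N5 of anti-CD40 tumour 1 and from 0.0577% to 0.874% in anti-CD40 tumour 2.

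**Figure D2:**
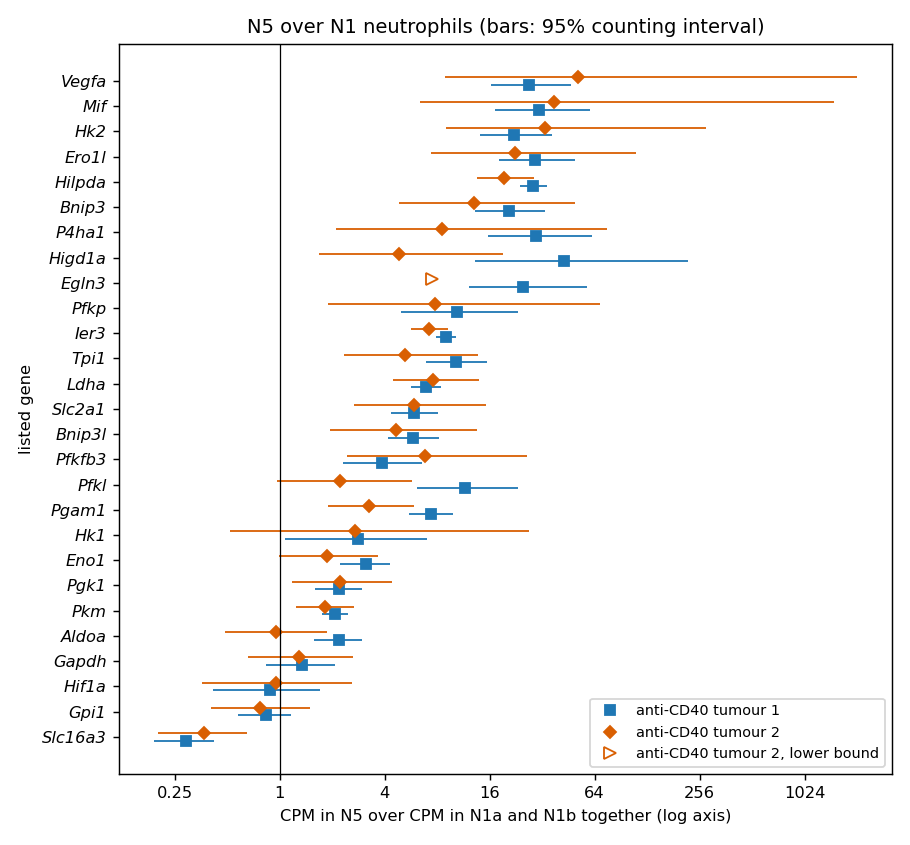
CPM in N5 over CPM in N1a and N1b together (log axis) for the 27 listed genes with enough UMIs, with 95% counting intervals; the open triangle is a lower bound. Slc16a3 lies left of 1 in both treated tumours, and Vegfa, Mif, Hk2 and Ero1l lie between 22.2 and 51.2 in both.

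Related lists varied along the same subsets in different directions. HIF regulators (10 genes, such as Cited2 and Egln1) went from 0.0152% of UMIs in N1a to 0.159% in N5 of anti-CD40 tumour 1. In anti-CD40 tumour 2 they went from 0.042% to 0.187%. In N5 of tumours 1 and 2, 5 and 6 of these 10 genes had 0 UMIs. Over all neutrophils of these tumours Cited2 had 166 and 108 UMIs, and Egln1 34 and 15. Other hypoxia targets (25 genes) went from 0.278% to 0.959% and from 0.346% to 1.05%. The pentose phosphate pathway (7 genes), which draws on the same glucose to make NADPH, went the other way, from 0.288% to 0.037% and from 0.289% to 0.0131%. Neutrophil markers went the same way, from 15.9% to 2.92% and from 16.1% to 3.34%. Other glycolysis genes (22) went from 0.136% to 0.114% and from 0.152% to 0.0719%, lower in N5 than in N1a in both tumours. They did not fall steadily, as N2 was lower than N5, at 0.0831% and 0.0606%. Respiration genes (28) went from 0.111% to 0.0755% and from 0.115% to 0.061%, with N3 lower than N5, at 0.058% and 0.0601%. Handling stress genes (Fos, Jun, Hspa1a and 5 others) went from 1.9% to 3.2% and from 2.33% to 4.8%, and their part in the subset pattern was not tested.

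Neutrophils were compared with the other myeloid cells next. The hypoxia genes took 1.38%, 0.861% and 2.13% of UMIs in neutrophils and 0.287%, 0.273% and 0.544% in the other myeloid cells. Without Ier3 and Hilpda the values were 0.46%, 0.247% and 0.418% and 0.188%, 0.168% and 0.305%, so that much of the difference lay in these 2 genes. Glycolysis genes took 1.11%, 0.833% and 1.06% and 0.707%, 0.735% and 0.985%, so that the cell types lay closer together there. Of 31 listed genes with at least 50 UMIs, 7 were at least 2-fold higher in neutrophils in all 3 tumours (Pfkfb3, Hilpda, P4ha1, Ero1l, Slc16a3, Egln3 and Ier3), a rule met by 8.74% of 6451 genes. Only Ndrg1 of the 31 was at least 2-fold lower in all 3, a rule met by 7.21%.

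Hilpda stood at 3111, 2646 and 7034 CPM in neutrophils and at 277, 408 and 1008 CPM in the other myeloid cells, ratios of 11.2-fold (8.38 to 14.9), 6.49-fold (5.67 to 7.44) and 6.98-fold (6.46 to 7.54). Ier3 was at 6051, 3495 and 10099 CPM and 716, 643 and 1385 CPM. Slc16a3 was at 1236, 1159 and 753 CPM in neutrophils and 216, 143 and 175 CPM in the other myeloid cells, so MCT4 RNA was above that of the other myeloid cells in every tumour although N5 was its lowest subset. Egln3 was at 554, 261 and 301 CPM and 21.1, 20.1 and 63.2 CPM. Ndrg1, a stress-response gene, was at 42.6, 36.5 and 75.3 CPM in neutrophils on 1, 26 and 13 UMIs and at 119, 199.8 and 298 CPM in the other myeloid cells. Among the lower glycolytic genes, Pkm differed by less than 2-fold, at 1918, 1577 and 1749.8 CPM and 1269, 1502 and 1639 CPM, and Aldoa had the lower values in neutrophils, at 511, 483 and 406 CPM against 700.1, 794 and 1215 CPM.

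**Figure D3:**
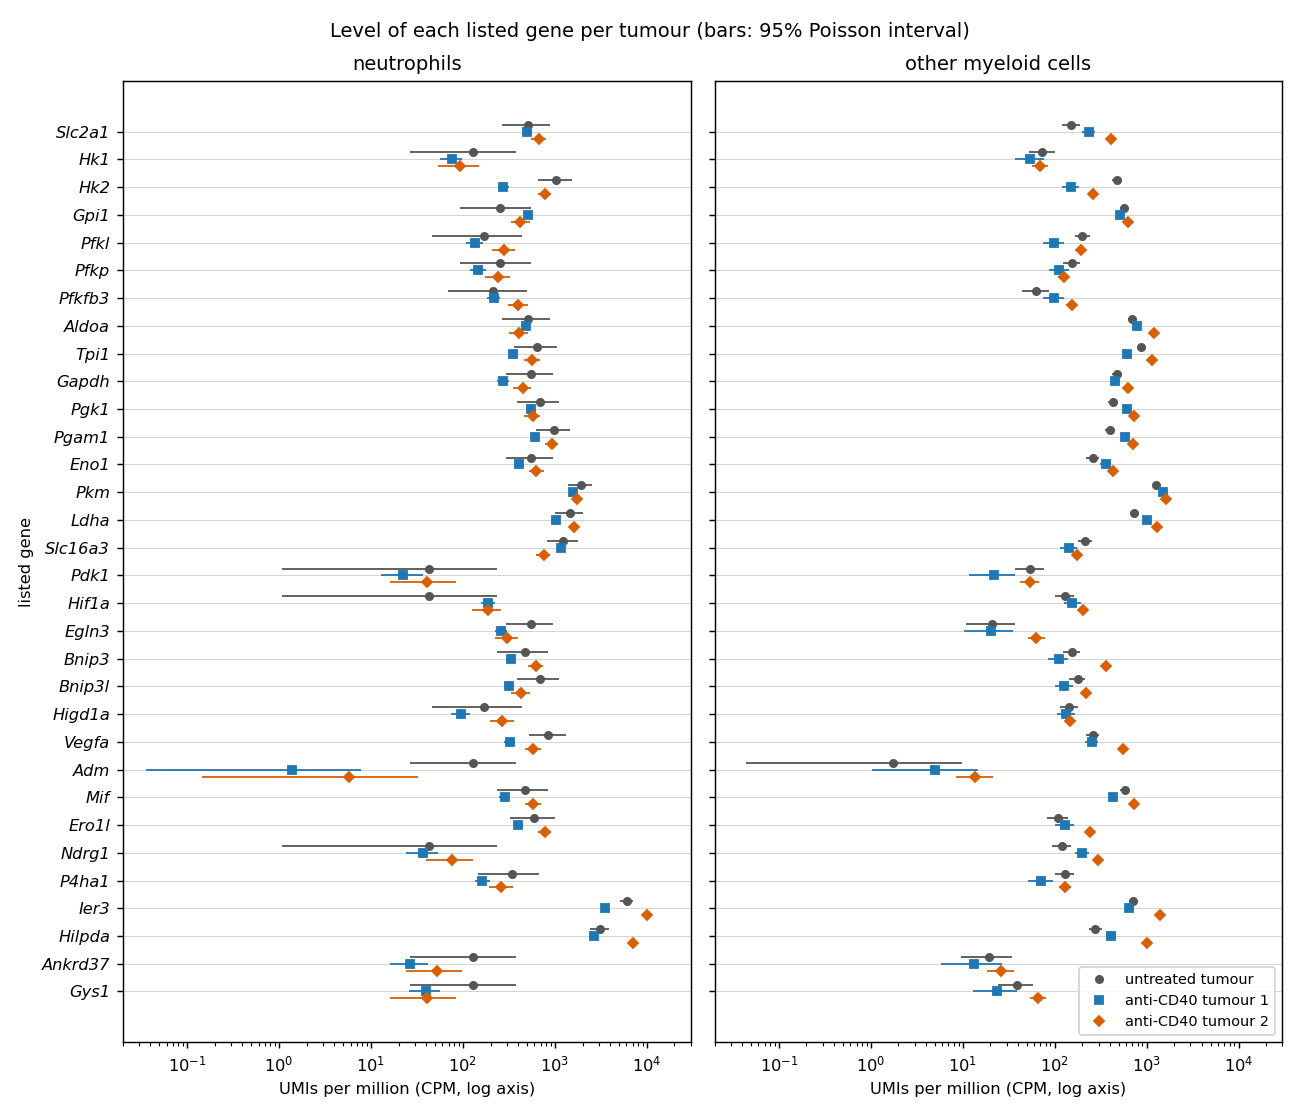
Level of each of the 32 genes (CPM, log axis) in neutrophils (left) and other myeloid cells (right) of the 3 tumours, with 95% Poisson intervals. Ier3 and Hilpda are the highest in neutrophils of each tumour, and the 49 untreated neutrophils give the widest intervals.

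In both groups of genes NK cells were below T cells in every tumour, and T cells were below neutrophils. T cells had 0.712%, 0.624% and 0.656% of UMIs in glycolysis genes and 0.246%, 0.203% and 0.232% in hypoxia genes, and NK cells had 0.382%, 0.401% and 0.467% and 0.112%, 0.124% and 0.196%. Pkm was at 1789, 1570.4 and 1355 CPM in T cells and 429, 620.2 and 622 CPM in NK cells, and Ldha at 1019, 1409 and 991 CPM and 729, 956 and 785 CPM. Hif1a, by contrast, was at 248, 393 and 458 CPM in T cells, above both myeloid types in every tumour. Vegfa was at 13.1, 23.1 and 37.4 CPM in T cells on 1, 1 and 4 UMIs. Ier3, the most abundant listed gene in neutrophils, was at 131, 139 and 37.4 CPM in T cells. Adm had 0 UMIs in both types in all tumours, and Egln3 had 0 in NK cells. Neutrophil markers took 0.0118%, 0.129% and 0.113% of T cell UMIs, and the part of free RNA in the listed genes was not tested.

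The comparison of the treated tumours with the untreated tumour asked whether the listed genes differed 2 days after the CD40 agonist. No listed gene passed edgeR's quasi-likelihood test (Benjamini-Hochberg adjusted p under 0.05) in any cell type. In neutrophils 0 of 30 tested members passed (0.442% of 2713 genes did), and 1 had an unadjusted p under 0.05, as 295 of all 2713 genes did. In the other myeloid cells 0 of 31 passed (0.409% of 7099 genes), and 4 had an unadjusted p under 0.05, as 653 of all genes did. In T cells 0 of 20 passed (2.09% of 1865 genes) and in NK cells 0 of 14 (1.89% of 794 genes), with 0 at an unadjusted p under 0.05 in either, against 208 of 1865 and 87 of 794 genes. DESeq2 also called 0 in each type; its unadjusted p was under 0.05 for 1 gene in the other myeloid cells and for 0 in the rest. Members left out of the tests had too few UMIs, 2 in neutrophils, 1 in the other myeloid cells, 12 in T cells and 18 in NK cells. The design of 1 against 2 tumours leaves 1 residual degree of freedom and assumes that the lone untreated tumour varies like the treated ones, so a missed threshold does not show that a gene did not differ. The test shared the spread over genes. Its median prior degrees of freedom were infinite in neutrophils, T cells and NK cells and 15.9 in the other myeloid cells. P-values in the former therefore rest on a spread largely pooled over genes.

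Log2 changes are given ± an approximate standard error (SE), with p-values adjusted over all genes tested in edgeR. This SE is the absolute log2 change divided by the square root of edgeR's F statistic, so it restates the test and is no separate estimate. In the other myeloid cells the 4 members with an unadjusted p under 0.05 were Hk2, Slc2a1, Pfkfb3 and Ndrg1, and they went in different directions. Hk2 stood at 472, 149 and 263 CPM, lower in both treated tumours (log2 change -1.13 ± 0.43, adjusted p = 0.45 in edgeR's test). Slc2a1 stood at 151, 233 and 414 CPM, higher in both (log2 change 1.16 ± 0.49, adjusted p = 0.502). Pfkfb3 stood at 63.2, 97.4 and 153 CPM (log2 change 1.05 ± 0.47, adjusted p = 0.523). The groups did not overlap for these 3 genes, as for 71.9% of the 7099 genes. So GLUT1 and PFKFB3 RNA lay above, and hexokinase 2 RNA below, the untreated level in both treated tumours, none of them past the threshold.

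The members that follow were highest in anti-CD40 tumour 2. Hilpda, Ndrg1, Ero1l, Ldha, Pgam1 and Hif1a were above the untreated level in both treated tumours. Egln3, Vegfa and Gapdh were above it in tumour 2 only. Hilpda stood at 277, 408 and 1008 CPM (log2 change 1.42 ± 0.67, adjusted p = 0.605 in edgeR's test). Ndrg1 stood at 119, 199.8 and 298 CPM (log2 change 1.11 ± 0.44, adjusted p = 0.457). Ero1l stood at 109, 129 and 245 CPM (log2 change 0.85 ± 0.50, adjusted p = 0.689), and Egln3 at 21.1, 20.1 and 63.2 CPM (log2 change 1.14 ± 0.84, adjusted p = 0.77) on 12, 12 and 92 UMIs. Vegfa stood at 259.7, 253 and 551 CPM (log2 change 0.70 ± 0.55, adjusted p = 0.779), so that anti-CD40 tumour 1 lay at the untreated level and tumour 2 above it. Among the lower steps Ldha was at 721, 1005 and 1298 CPM (log2 change 0.71 ± 0.43, adjusted p = 0.69), Pgam1 at 402, 586 and 709 CPM (log2 change 0.72 ± 0.41, adjusted p = 0.651) and Gapdh at 474, 458 and 622 CPM (log2 change 0.23 ± 0.41, adjusted p = 0.895). Hif1a was at 128, 156 and 203 CPM (log2 change 0.53 ± 0.42, adjusted p = 0.77). Without anti-CD40 tumour 2 the log2 change turned to -0.15 for Egln3, -0.12 for Vegfa and -0.14 for Gapdh. Within pool 1 it was -0.29 for Hif1a, -1.29 for Egln3 and -0.32 for Vegfa, and within pool 2 -0.041 for Ero1l and -0.59 for Gapdh. These are only members whose log2 change is printed. Over all tested members the change was above 0 for 23 of 31, but for 12 of 31 without anti-CD40 tumour 2, 13 of 30 within pool 1 and 11 of 29 within pool 2. Both treated tumours were above the untreated tumour in 12 of 31 members (34.8% of 7099 genes were) and below it in 7 (37.1% of genes), shares near the background upward and below it downward.

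For most of the remaining members in these cells tumour 1 was the lowest of the 3. Bnip3 stood at 154, 111 and 362 CPM, Bnip3l at 177, 128 and 221 CPM and Mif at 576, 433 and 724 CPM. Tpi1 stood at 862, 609 and 1132 CPM, P4ha1 at 129.8, 70.5 and 129 CPM and Higd1a at 144, 133 and 148 CPM. Gpi1 stood at 574, 519 and 625 CPM, Pfkp at 153, 112 and 125 CPM and Hk1 at 73.7, 53.7 and 69.4 CPM. Pdk1, for the kinase that keeps pyruvate out of mitochondria, stood at 54.4, 21.8 and 53.6 CPM on 31, 13 and 78 UMIs, and Gys1 at 38.6, 23.5 and 66 CPM on 22, 14 and 96 UMIs. Pfkl had 114, 59 and 279 UMIs, of 569932, 595728 and 1454851 in these cells. Adm had 1, 3 and 20 UMIs, and Ankrd37, a HIF target, 11, 8 and 38. Pgk1 at 429.9, 608 and 726 CPM and Eno1 at 261, 358 and 436 CPM were above the untreated level in both treated tumours, while Slc16a3, given above, was below it in both.

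The median log2 change of the 31 members in these cells was 0.36, against 0.02 over all genes. Relative to all genes it was 0.34, and it was 0.81 with anti-CD40 tumour 2 alone and -0.20 with anti-CD40 tumour 1 alone. Within pools 1 and 2, which hold the untreated tumour and anti-CD40 tumour 1, it was -0.15 and -0.34. The positive median therefore rested on anti-CD40 tumour 2, whose pools held no untreated cells.

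The 2 treated tumours differed from each other. In the other myeloid cells 7 of 30 members (Pdk1, Hilpda, Gys1, Bnip3, Egln3, Ier3 and Vegfa) were at least 2-fold higher in anti-CD40 tumour 2 than in tumour 1, a rule met by 3.5% of 5107 genes, and 0 were at least 2-fold lower (4.95% of genes). Bnip3 was 3.26-fold (2.52 to 4.28), Hilpda 2.47-fold (2.16 to 2.84), Vegfa 2.17-fold (1.82 to 2.6) and Ier3 2.15-fold (1.93 to 2.41) higher. Of the 7, all but Pdk1, which was grouped here with the glycolysis genes, are in the hypoxia group. The hypoxia sum was 0.280% to 0.301% of UMIs over the untreated libraries, 0.247% to 0.333% over those of tumour 1 and 0.487% to 0.580% over those of tumour 2, so tumour 2 did not overlap the other tumours in any library. Handling stress genes were also highest in tumour 2, at 0.546%, 0.616% and 1.03% of UMIs, and their part in this difference was not tested. The mix of classes within the other myeloid cells, given below, also differed between the treated tumours, and its part was not tested. Cells with at least 3 UMIs of markers of a second cell type made up 0.968%, 16.7% and 6.39% of these cells, and without them the hypoxia sum was 0.286%, 0.331% and 0.532%.

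**Figure D4:**
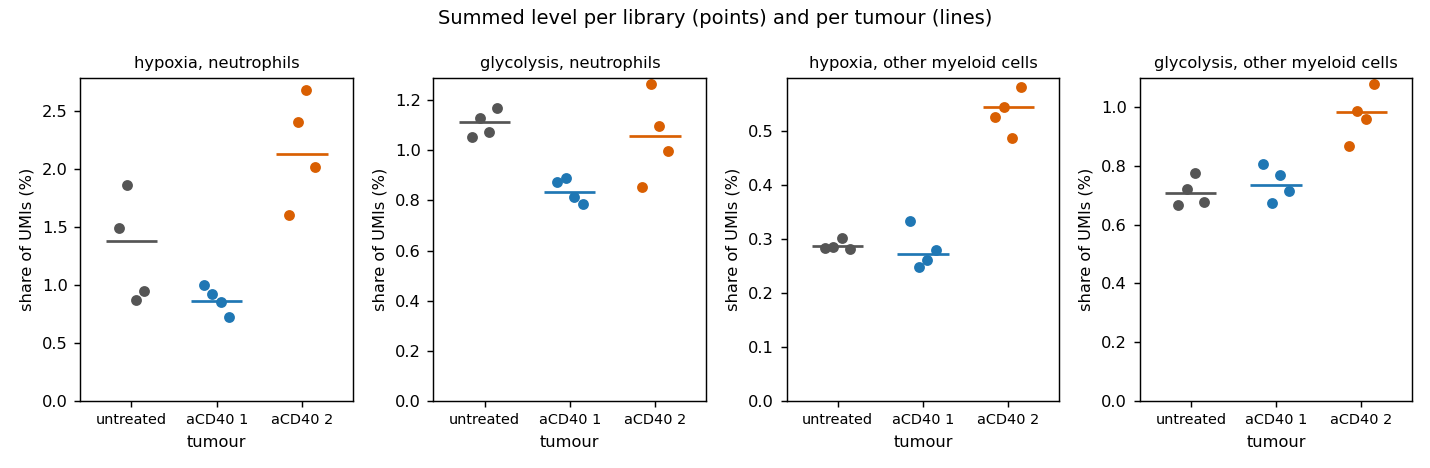
Share of UMIs in hypoxia and glycolysis genes per library (points) and per tumour (lines) in neutrophils (left pair) and other myeloid cells (right pair). In the other myeloid cells the 4 libraries of anti-CD40 tumour 2 sit between 0.487% and 0.58% for hypoxia genes, above all libraries of the other tumours.

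Cells of the mixed myeloid class were split, after the data had been seen, by UMIs of the C1q genes (complement made by mature macrophages) and of Arg1 (arginase 1, often high in hypoxic macrophages), each cell first thinned to 300 UMIs. Cells with no C1q and an Arg1 UMI had the most hypoxia RNA, 0.423%, 1.02% and 1.04% of thinned UMIs on 56, 51 and 124 cells. Cells with C1q were at 0.294%, 0.37% and 0.557%, and cells with neither at 0.22%, 0.167% and 0.404%. In the Arg1 class both treated tumours had overlapping intervals, above that of the untreated tumour. In the class with neither gene only tumour 2 was above the untreated tumour. These intervals cover counting error only and not the spread between animals, and an effect of treatment within the classes was not tested. Cells with C1q made up 70.8%, 32.2% and 67.8% of the thinned cells, tumour 1 having the lowest share. Cells with neither gene made up 22.7%, 55.6% and 22.4%, tumour 1 having the highest share. The part of this mix in the difference between the treated tumours was not tested. Glycolysis genes followed the same order over the classes, at 1.16%, 1.75% and 1.63% with Arg1 and 0.56%, 0.554% and 0.749% with neither.

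**Figure D5:**
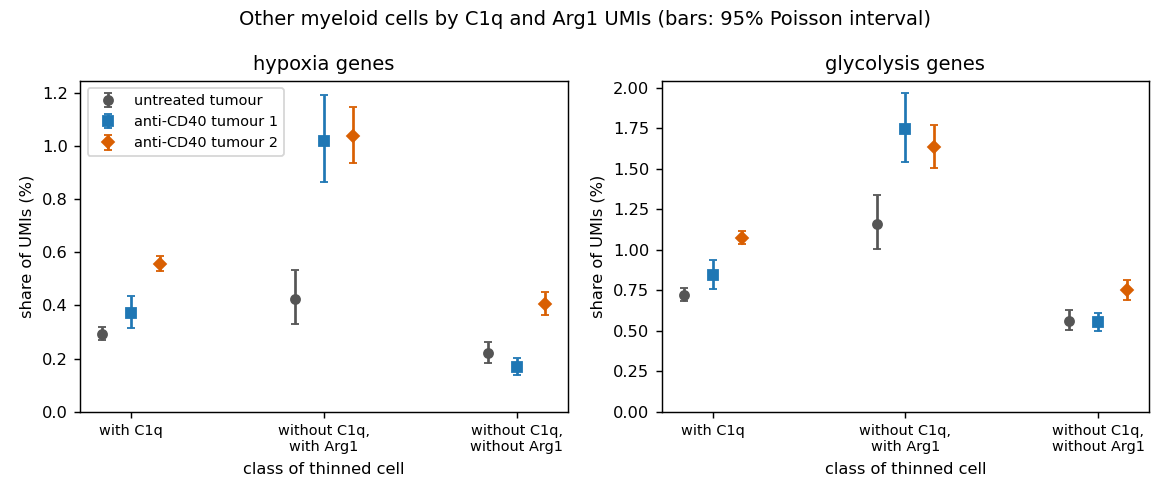
Share of thinned UMIs in hypoxia (left) and glycolysis (right) genes in 3 classes of other myeloid cells per tumour, with 95% Poisson intervals. The class without C1q and with Arg1 is highest in each tumour.

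Cells with a UMI of 1 listed gene were higher in the others for Vegfa, Slc2a1 and Gapdh, and not for Hif1a in every tumour. Other myeloid cells of anti-CD40 tumour 2 with a Vegfa UMI, after thinning, had 0.747% of UMIs in the other hypoxia genes, against 0.466% in cells without one. The values were 0.67% and 0.261% in tumour 1 and 0.431% and 0.248% in the untreated tumour. With Slc2a1, a glycolysis gene, as the split the hypoxia genes were at 0.976% against 0.513%, 1.004% against 0.296% and 0.604% against 0.27% in tumour 2, tumour 1 and the untreated tumour. With Gapdh they were at 0.796% against 0.522%, 0.494% against 0.31% and 0.338% against 0.278%, so this reference gene gave a split in the same direction. With Hif1a as the split they were at 0.549% against 0.549% in tumour 2, 0.199% against 0.275% in the untreated tumour, and 0.46% against 0.318% in tumour 1, where 16 cells had a Hif1a UMI.

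In neutrophils the untreated counts were small. Hif1a stood at 42.6, 187 and 185 CPM on 1, 133 and 32 UMIs, the smallest p among members (log2 change 2.68 ± 1.23, adjusted p = 0.439 in edgeR's test). Hilpda stood at 3111, 2646 and 7034 CPM (log2 change 1.25 ± 0.74, adjusted p = 0.513), Gpi1 at 256, 516 and 423 CPM (log2 change 1.45 ± 0.83, adjusted p = 0.502) and Pfkfb3 at 213, 217 and 399.8 CPM (log2 change 1.10 ± 0.86, adjusted p = 0.631). Ankrd37 stood at 128, 26.7 and 52.1 CPM (log2 change -1.25 ± 1.23, adjusted p = 0.721) and Gys1, for muscle glycogen synthase, at 128, 39.3 and 40.6 CPM (log2 change -1.12 ± 1.23, adjusted p = 0.756). Slc2a1 stood at 511, 504 and 672 CPM (log2 change 0.78 ± 0.74, adjusted p = 0.712), Pfkl at 170.4, 135 and 278 CPM (log2 change 0.82 ± 0.88, adjusted p = 0.752) and Ndrg1 at 42.6, 36.5 and 75.3 CPM (log2 change 0.83 ± 1.62, adjusted p = 0.872). Hk2 stood at 1023, 276 and 776 CPM (log2 change -0.37 ± 0.68, adjusted p = 0.861), Vegfa at 852, 323 and 579 CPM (log2 change -0.34 ± 0.69, adjusted p = 0.878), Ldha at 1449, 1027 and 1599 CPM (log2 change 0.44 ± 0.68, adjusted p = 0.837) and Gapdh at 554, 275 and 446 CPM (log2 change -0.05 ± 0.73, adjusted p = 0.986).

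The other members had untreated values inside or above the treated range in most cases. Along the pathway Hk1 stood at 128, 75.8 and 92.7 CPM, Pfkp at 256, 147 and 243 CPM and Tpi1 at 639, 348 and 568 CPM. Pgk1 stood at 682, 549 and 574 CPM, Pgam1 at 980.1, 610.3 and 927 CPM, Eno1 at 554, 409.7 and 632 CPM and Pdk1 at 42.6, 22.4 and 40.6 CPM on 1, 16 and 7 UMIs. Of the hypoxia genes Bnip3 stood at 469, 335 and 620.0 CPM, Bnip3l at 682, 318 and 429 CPM, Higd1a at 170.4, 95.4 and 267 CPM and Mif at 469, 285 and 585 CPM. Ero1l stood at 597, 397 and 776 CPM and P4ha1 at 341, 163 and 261 CPM. Tumour 1 was the lowest of the 3 tumours for each of these 13 genes.

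The scaling matters for these signs, and Ldha turned from 0.44 to -0.15 with plain library size. Within pool 1 the log2 change was -0.48 for Ldha, -0.61 for Pfkl and -0.089 for Hilpda. Hk2, Vegfa and Gapdh turned to 0.11, 0.34 and 0.16 without the 10% of cells with the fewest UMIs. Over all tested members the log2 change was above 0 for 21 of 30, but for 10 of 30 with plain library size, 12 of 31 without anti-CD40 tumour 2, 11 of 28 within pool 1 and 16 of 29 within pool 2. The median log2 change over all genes tested in neutrophils was 0.29 with TMM scaling and -0.28 with plain library size, and the members' median was 0.37 and -0.21, so relative to all genes the members differed by 0.08 and 0.07. Both treated tumours were above the untreated tumour in CPM in 3 of 30 members (Pfkfb3, Gpi1 and Hif1a; 32.3% of genes) and below it in 16 (51.3% of genes). Anti-CD40 tumour 2 was at least 2-fold above tumour 1 in 6 of 27 members (Hilpda, Hk2, Mif, Pfkl, Higd1a and Ier3; 5.93% of 2058 genes) and at least 2-fold below it in 0 (13.2% of genes).

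The subset mix also differed between the tumours, and its part in these levels was not tested. N1a and N1b, the subsets lowest in hypoxia genes, held 0 and 4 of 49 untreated neutrophils, 128 and 148 of 700 in anti-CD40 tumour 1 and 16 and 14 of 215 in tumour 2. Over all neutrophils the hypoxia genes took 1.38%, 0.861% and 2.13% of UMIs, tumour 1 lowest. With N2, N3 and N5 given equal weight (chosen after the data had been seen), the values were 1.59%, 1.87% and 2.44%, tumour 1 no longer lowest. Without Ier3 and Hilpda the same weighted mean was 0.544%, 0.536% and 0.481%, the opposite order. Ier3 in N5 was at 9512, 9987 and 15295 CPM and Hilpda at 8705, 13101 and 16319 CPM. Handling stress genes in N5 were at 2.64%, 3.2% and 4.8%, the same order, and their part was not tested. For glycolysis genes the weighted means were 1.18%, 1.23% and 1.11%.

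Whether the effect of treatment differed between neutrophils and the other myeloid cells was tested as an interaction with the tumour as a block. In this test 0 of 32 members passed (0.0779% of 7700 genes did), and 4 (Adm, Gpi1, Hif1a and Pfkl) had an unadjusted p under 0.05, as 430 of the 7700 genes did. The differences of the log2 changes, neutrophils minus other myeloid cells, were 2.97 ± 1.41 for Hif1a (edgeR adjusted p = 0.852) and 2.21 ± 0.91 for Gpi1 (adjusted p = 0.788). Untreated neutrophils held only 1 UMI of Hif1a, 6 of Gpi1, 4 of Pfkl and 3 of Adm, so these differences rest on few counts. The median difference was 1.83 over all genes and 0.72 over the members, and with plain library size it was 0.74 and -0.59. The members' median thus lay below that of all genes and took the opposite sign under the other scaling.

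Lists of related genes had few calls. Of 22 other glycolysis genes 6 could be tested in neutrophils, 11 in the other myeloid cells, 2 in T cells and 0 in NK cells, and 0 passed. Of 10 HIF regulators 4, 7, 1 and 0 could be tested, and 0 passed. The 7 pentose phosphate and 28 respiration genes also gave 0 calls in each type. Of 25 other hypoxia targets 11 and 15 were tested in neutrophils and the other myeloid cells with 0 calls, 7 in T cells and 5 in NK cells. In T cells and in NK cells 2 of them passed edgeR's test, Cxcr4, for a chemokine receptor, and Bhlhe40, for a transcription factor. Cxcr4 stood at 131, 439 and 692 CPM in T cells (log2 change 2.17 ± 0.47, adjusted p = 0.000375 by edgeR) and at 85.8, 491 and 908 CPM in NK cells (log2 change 3.06 ± 0.89, adjusted p = 0.0402). Bhlhe40 stood at 157, 508 and 495 CPM in T cells (log2 change 1.65 ± 0.46, adjusted p = 0.02) and at 42.9, 853 and 810.0 CPM in NK cells (log2 change 4.20 ± 1.01, adjusted p = 0.0049). These rest on 10 and 12 untreated UMIs in T cells and on 2 and 1 in NK cells, for Cxcr4 and Bhlhe40. DESeq2 called neither gene in either type, with adjusted p of 0.972 to 0.999. Of 11 alternatives with a test, DESeq2 included, Cxcr4 was called in 9 in T cells and 4 in NK cells, and Bhlhe40 in 4 and 6. In T cells thinning the cells gave edgeR adjusted p = 0.121 for Cxcr4, and for Bhlhe40 it was 0.163 without the low-count filter and 0.365 without pool 2. In NK cells Cxcr4 had edgeR adjusted p = 0.0578 with plain library size and 0.559 without the filter, and Bhlhe40 had 0.171 without the filter. Both genes stayed above 0 in log2 change in each alternative that gave a value, and both also respond to signals other than low oxygen. Neutrophil markers in T cells were at 0.0118%, 0.129% and 0.113% and macrophage markers at 0.317%, 0.0716% and 0.0981% of UMIs, and their part in these changes was not tested.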

How the data were processed

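Single-cell inDrops counts of 3 tumours were used, in 4 tables of cells by 22631 genes. The deposited values are whole-number UMI counts, not normalized, and cell types, subsets and libraries are the authors' annotation, per the file headers. The submitters' processing notes name bcl2fastq, STAR and GRCm38. Versions, counter, annotation, use of strand, cell filters and doublet treatment were not given in the sources used here. The lowest total was 180 UMIs per cell. No doublet caller was run here, and cells with at least 3 UMIs of a second type's markers were left out as an alternative.

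Counts were summed per tumour and cell type, the tumour being the replicate, and tested over all genes with edgeR (version 4.0.16, R 4.3.3), by its robust quasi-likelihood test after filterByExpr and TMM scaling, with Benjamini-Hochberg adjustment and a threshold of 0.05; DESeq2 1.42.0 was an alternative. The fit was tested on simulated counts with known changes. The members and gene lists were chosen with earlier results of these data known. Fold changes and adjusted p are printed for members past the threshold, for the 8 tested members with the largest absolute log2 change in neutrophils and in other myeloid cells, and for Slc2a1, Hk2, Pfkfb3, Gapdh, Ldha, Hif1a and Vegfa; genes of other lists are named where they passed. Folds between cell groups use genes with at least 50 UMIs and levels at least 10 cells. Alternatives were plain and DESeq2 scaling, no low-count filter, cells thinned to 300 UMIs, shallow cells left out, each pool or treated tumour left out, and values within pools. Promoters were read from the RefSeq table (GRCm38.p6), and gene positions from GENCODE on GRCm38. Nearly identical genes were found with BLAST 2.17.0.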

Additional observations from a re-analysis of the deposited data

How the results depend on the processing

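With 1 untreated tumour, 49 untreated neutrophils and a median of 433 UMIs per untreated cell, counts and sample number limit what could be detected. In each alternative with a test, 0 listed genes passed the threshold in any cell type. The median log2 change of the listed genes relative to all genes did not keep its direction in every alternative, and the cause was not tested. In neutrophils it was 0.085 as reported, -1.35 without the low-count filter, -0.33 within pool 1 and -0.50 within pool 2, and leaving out 1 pool or treated tumour gave -0.55 (without anti-CD40 tumour 2) to 0.13. In other myeloid cells it was 0.34, -0.15 within pool 1 and -0.34 within pool 2, with -0.20 (without anti-CD40 tumour 2) to 0.81 on leaving out. In T cells it was -0.30, -0.60 within pool 1 and -0.027 within pool 2, with -0.39 to -0.060 on leaving out. In NK cells it was 0.37, -0.90 without the filter, 1.40 with thinned cells and 0.67 within pool 1, with 0.094 to 0.67 on leaving out. These NK medians rest on 14 members as reported but on 1 with thinned cells, 3 within pool 1 and 4 without pool 1 or pool 2, so they show little. The log2 ratio of the summed level of all 32 genes, anti-CD40 tumour 2 over untreated in neutrophils, was 0.36, but -0.086 without the 3 most abundant genes and -0.059 with equal weights. For tumour 1 in other myeloid cells it was 0.019, but -0.031, -0.10 and, within pool 2, -0.0072. Of 30 members tested in neutrophils 11 changed sign with plain library size and 9 without anti-CD40 tumour 2, as did 11 of 28 within pool 1. In other myeloid cells 11 of 31 did so without anti-CD40 tumour 2 and 10 of 29 within pool 2. Among genes whose log2 change is printed, those that changed sign in neutrophils were Hk2 (0.11) and Vegfa (0.34) without the 10% of cells with the fewest UMIs, Gapdh (0.16) there and 0.18 without the filter, Pfkl (-0.022 thinned, -0.61 within pool 1), Ldha (-0.15 with plain library size, -0.48 within pool 1) and Hilpda (-0.089 within pool 1). In other myeloid cells they were Gapdh (-0.59 within pool 2), Hif1a (-0.29), Egln3 (-1.29) and Vegfa (-0.32) within pool 1, and Ero1l (-0.041) within pool 2. Leaving out a pool or treated tumour gave ranges in neutrophils of -0.66 to 0.59 for Gapdh, -0.047 to 1.67 for Ldha and -0.95 to 0.37 for Vegfa. In other myeloid cells it gave -0.27 to 0.51 for Gapdh, -0.15 to 3.54 for Egln3 and -0.12 to 1.20 for Vegfa. Over all genes the number past the threshold ranged from 2 to 25 in neutrophils and from 1 to 141 in other myeloid cells. The summed levels within pools, the equal weighting of subsets, the sums without Ier3 and Hilpda and the C1q and Arg1 classes were chosen after seeing the data. No paired analysis was possible because the groups share too few replicate numbers (1 untreated tumour).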

Other observations

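The 20 untreated B cells held 0.750% of UMIs in glycolysis genes and 0.206% in hypoxia genes; the treated tumours had 2 and 5 B cells, too few for a level. Neutrophils of anti-CD40 tumour 1 with a Vegfa UMI after thinning held 2.21% of UMIs in the other hypoxia genes, against 0.815% in those without one, and in tumour 2 the values were 3.34% and 1.95%. Split by Hif1a in anti-CD40 tumour 1 they were 0.743% with and 0.940% without a UMI. These values are descriptions of cells within single tumours.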
